A study of Mus musculus with 2 samples.

Results

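The regulators described here are the 9 mouse genes for serum response factor (Srf), its ternary complex factor partners (Elk1, Elk3, Elk4), its coactivator myocardin (Myocd) and the MEF2 family (Mef2a, Mef2b, Mef2c, Mef2d), out of 21938 protein-coding genes of GENCODE M21. They were chosen by name. For each gene the peaks within 500 bp of any of its annotated transcription starts were read as promoter peaks, and peaks farther than 1000 bp from every annotated start were read as distal when the gene had the nearest protein-coding start within 100 kb. DNase-seq, which sequences the ends of fragments that DNase I cuts from accessible chromatin, was measured in whole urinary bladder. The animals were female B6CASTF1/J mice aged 4 days, a first-generation cross of C57BL/6J and CAST/EiJ, whose alleles the files do not separate. The study had 1 group of 2 biological replicates, from females given different numbers but a shared donor identifier, so no conditions were compared and the spread between the libraries may be technical. No treatment or engineered allele is named in the labels. The bladder is a mixture of cell types, and a lower peak in it can mean fewer cells with an open site or less cutting per cell, which cannot be told apart.

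SRF is a transcription factor that binds CArG boxes in the promoters of growth response and contractile genes. Ternary complex factors, ETS proteins phosphorylated by MAP kinases, direct it to immediate early genes, whereas myocardin and the related MRTF proteins, which respond to the pool of free actin, direct it to smooth muscle genes. MEF2 factors belong to the same MADS-box family, bind a related AT-rich site, and answer to calcium signals through class II histone deacetylases. SRF is also known to act on its own gene through CArG boxes.

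The sequences below carry the results that follow. All are from mm10, taken from the GRCm38.p6 genome and written 5′ to 3′ on the strand of the gene, and each was limited to bases outside annotated exons. Capitals mark bases that lay in a footprint, a short stretch protected from DNase I, in both replicates. The first set holds promoters and the Srf intron. Those of Srf, Elk4, Mef2b and Mef2d are shown for the CArG, ETS, GC box and NRF1 letters described with the motifs, and those of Myocd and Mef2a as the lowest promoter and a tall one.
Srf promoter, chr17:46556221-46556480, minus strand: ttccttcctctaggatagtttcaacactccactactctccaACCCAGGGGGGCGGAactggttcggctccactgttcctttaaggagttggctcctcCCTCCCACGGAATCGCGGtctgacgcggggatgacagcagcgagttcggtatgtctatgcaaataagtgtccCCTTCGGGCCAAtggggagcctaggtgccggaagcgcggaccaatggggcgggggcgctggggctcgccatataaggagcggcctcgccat
Srf intron, chr17:46553161-46553380, minus strand: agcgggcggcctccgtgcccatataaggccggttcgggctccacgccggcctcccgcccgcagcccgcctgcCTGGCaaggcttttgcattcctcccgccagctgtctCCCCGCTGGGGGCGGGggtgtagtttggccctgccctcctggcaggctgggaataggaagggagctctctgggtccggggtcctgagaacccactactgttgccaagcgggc
Elk4 promoter, chr1:132007441-132007606, plus strand: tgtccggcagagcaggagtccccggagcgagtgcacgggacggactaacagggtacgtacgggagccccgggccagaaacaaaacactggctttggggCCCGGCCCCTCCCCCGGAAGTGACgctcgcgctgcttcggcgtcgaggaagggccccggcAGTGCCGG
Myocd promoter, chr11:65269990-65270210, minus strand: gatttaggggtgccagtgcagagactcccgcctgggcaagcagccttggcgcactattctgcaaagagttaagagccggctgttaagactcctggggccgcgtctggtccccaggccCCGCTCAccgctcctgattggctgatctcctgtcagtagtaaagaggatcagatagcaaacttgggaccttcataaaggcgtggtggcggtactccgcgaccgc
Mef2a promoter, chr7:67372859-67373000, minus strand: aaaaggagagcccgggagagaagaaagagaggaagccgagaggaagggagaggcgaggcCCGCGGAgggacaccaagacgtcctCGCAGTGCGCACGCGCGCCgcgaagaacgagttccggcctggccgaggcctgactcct
Mef2b upstream window, chr8:70139155-70139440, plus strand: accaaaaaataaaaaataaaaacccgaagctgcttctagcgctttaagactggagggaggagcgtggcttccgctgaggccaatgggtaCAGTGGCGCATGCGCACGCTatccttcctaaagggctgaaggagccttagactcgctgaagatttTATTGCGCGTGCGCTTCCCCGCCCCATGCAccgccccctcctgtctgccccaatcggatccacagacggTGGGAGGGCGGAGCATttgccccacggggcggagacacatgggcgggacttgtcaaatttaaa
Mef2d promoter, chr3:88142161-88142371, plus strand: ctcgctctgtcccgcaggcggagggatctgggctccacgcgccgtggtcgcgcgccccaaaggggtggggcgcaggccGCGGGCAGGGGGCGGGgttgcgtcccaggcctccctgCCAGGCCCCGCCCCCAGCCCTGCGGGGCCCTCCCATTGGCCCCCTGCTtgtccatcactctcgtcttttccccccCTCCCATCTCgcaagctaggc

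The second set holds distal regions, of which the first 7 each have a footprint over the core of the CTCF motif, described with the motifs. The last 2, of Myocd and Mef2d, have none and are shown for their heights.
Elk1 intron, chrX:20946190-20946280, minus strand: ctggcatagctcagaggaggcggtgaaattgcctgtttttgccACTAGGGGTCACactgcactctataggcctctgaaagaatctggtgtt
Elk3 intron, chr10:93291981-93292120, minus strand: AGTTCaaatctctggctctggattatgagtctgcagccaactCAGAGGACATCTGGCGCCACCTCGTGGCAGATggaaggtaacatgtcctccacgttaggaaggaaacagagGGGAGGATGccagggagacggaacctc
Elk3 intron, chr10:93291441-93291640, minus strand: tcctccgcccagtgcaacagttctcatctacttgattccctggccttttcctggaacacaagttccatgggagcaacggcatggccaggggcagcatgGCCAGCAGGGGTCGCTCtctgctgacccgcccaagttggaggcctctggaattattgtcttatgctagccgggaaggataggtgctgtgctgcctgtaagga
Elk4 upstream, chr1:131995161-131995360, plus strand: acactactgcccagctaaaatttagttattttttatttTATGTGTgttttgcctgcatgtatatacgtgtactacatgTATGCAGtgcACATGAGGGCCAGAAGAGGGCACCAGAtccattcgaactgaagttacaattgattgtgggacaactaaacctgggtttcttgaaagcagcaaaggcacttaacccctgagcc
Mef2c intron, chr13:83654981-83655160, plus strand: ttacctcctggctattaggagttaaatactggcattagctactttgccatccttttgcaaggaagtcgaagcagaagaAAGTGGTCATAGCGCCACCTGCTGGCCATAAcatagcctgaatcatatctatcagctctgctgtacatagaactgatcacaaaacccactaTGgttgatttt
Mef2c downstream, chr13:83715061-83715280, plus strand: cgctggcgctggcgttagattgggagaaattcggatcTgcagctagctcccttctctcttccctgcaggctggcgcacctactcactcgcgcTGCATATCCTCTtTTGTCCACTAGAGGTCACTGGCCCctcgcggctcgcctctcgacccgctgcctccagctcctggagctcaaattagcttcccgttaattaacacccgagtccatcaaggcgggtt
Mef2d downstream, chr3:88173512-88173680, plus strand: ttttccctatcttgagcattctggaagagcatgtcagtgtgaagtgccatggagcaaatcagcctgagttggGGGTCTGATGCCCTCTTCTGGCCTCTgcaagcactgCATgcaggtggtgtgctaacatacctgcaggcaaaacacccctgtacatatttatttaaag
Myocd intron, chr11:65197381-65197560, minus strand: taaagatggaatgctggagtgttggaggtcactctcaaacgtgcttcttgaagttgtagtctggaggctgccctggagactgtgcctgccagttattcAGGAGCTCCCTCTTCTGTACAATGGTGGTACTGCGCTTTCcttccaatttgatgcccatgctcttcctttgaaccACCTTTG
Mef2d upstream, chr3:88138361-88138540, plus strand: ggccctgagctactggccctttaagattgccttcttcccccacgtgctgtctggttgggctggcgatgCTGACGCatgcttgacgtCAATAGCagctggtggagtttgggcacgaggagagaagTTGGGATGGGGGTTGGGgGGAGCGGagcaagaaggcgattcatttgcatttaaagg

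Peak height is the signal the authors deposited for each peak. Heights came in whole steps, of 0.00466 in replicate 1 and 0.00417 in replicate 2. Each step was treated as a count, which the sources do not state. On that assumption the counting error of each height is given as an exact Poisson interval on the number of steps. The total read depth is unknown here, and these intervals cover counting error only. The longer of the 2 peak lists of each replicate was used, with 96518 and 122870 peaks. Genes that define smooth muscle and fibroblasts had open promoters in this tissue (6 of 6 and 5 of 5 in both replicates). Of all protein-coding genes 62.3% had a promoter peak in both. Among urothelial markers 3 of 6 did, among endothelial markers 2 of 4, and among leukocyte and among neuronal and glial markers 0 of 4 each. Of 7 skeletal and heart muscle markers 2 did, Ckm and Nkx2-5, with no peak at Myod1, Myog, Myh3, Myh6 or Tnnt2.

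Both replicates had a promoter peak at all 9 genes, where 62.3% of protein-coding genes had one in both. In the shorter, stricter peak lists 7 of the 9 kept it in both replicates, against 55% of genes, and the exceptions were Elk3, kept in replicate 1 alone, and Myocd, kept in neither. Promoter bases with a deposited false discovery rate up to 0.05 for their cut rate were listed in both replicates at all 9, as at 63.3% of genes, and bases with a rate up to 0.001 at 7, as at 55.8%. Promoter heights ran from among the lowest of open genes, at Myocd and Elk3, to among the tallest, at Mef2b. That Mef2b peak was nearest to the start of another gene, Rfxank. The next tallest, Mef2a, was above 80.5% and 82.9% of open genes. Replicate 2 was lower at each gene, as it was at most sites: the medians of open genes were 2.44 and 1.80, and the log2 ratio of replicate 2 over replicate 1 over the 53490 shared regions had a median of -0.28 (SD 0.40). Differences between replicates are therefore given after centring on that median.

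By mean height the order was Mef2b, Mef2a, Srf, Mef2d, Elk4, Elk1, Mef2c, Elk3 and Myocd. The Mef2b height is that of a window shared with other genes, described below, and cannot be assigned to Mef2b. The order was the same within each replicate, except that Elk3 was above Myocd in replicate 1 and below it in replicate 2. The ranges spanned by both replicates overlapped between neighbours from Mef2b down to Elk4, and from Mef2c down to Myocd. These ranges include the lower level of replicate 2. Within each replicate the Poisson intervals were apart between Mef2b and Mef2a, between Elk4 and Elk1, and between Elk1 and Mef2c. Those of Mef2d and Elk4, and of Mef2c and Elk3, were apart in replicate 2 alone. Those of Elk3 and Myocd were apart in replicate 1 alone.

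**Figure D1:**
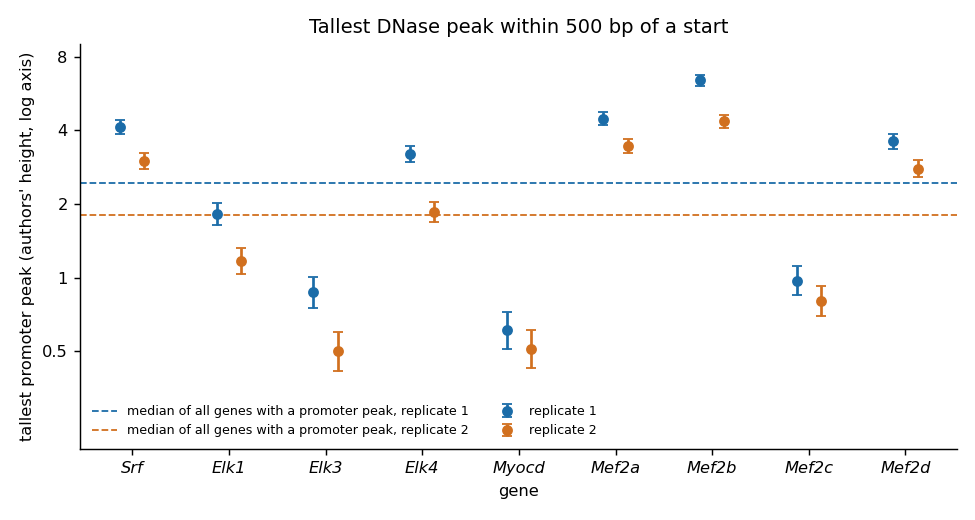
Tallest promoter peak of each gene (authors' height, log axis) in replicate 1 and replicate 2, with 95% exact Poisson intervals, and dashed lines at the median of all genes with a promoter peak. Srf, Mef2a, Mef2b and Mef2d lay above the median of their replicate in both, and Elk4 lay close to or above it (3.20 and 1.85). Elk1, Mef2c, Elk3 and Myocd lay below it in both. The Mef2b peak is the one nearest to Rfxank.

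Srf, the factor at the centre of the group (chromosome 17, 46548329 to 46556175, minus strand), had a tall promoter. The peak over its first start reached 4.13 in replicate 1 (interval 3.86 to 4.41) and 2.99 in replicate 2 (2.78 to 3.22), 3.56 ± 0.800 (SD, n = 2). This placed Srf above 76.5% and 75.6% of the genes with a promoter peak. The centred log2 difference of -0.18 was inside the SD of all shared regions. In replicate 1 all 1001 bases within 500 bp of the start were listed with a rate up to 0.05, and in replicate 2 523 were, with lowest rates of 8.87e-30 and 2.19e-23. The 3 later Srf starts, 4.38 to 6.08 kb downstream, had no peak in either replicate.

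Srf also held open sites inside its own introns. The tallest, 2.89 kb downstream of the first start, stood at 3.0 and 1.86, and its neighbour 3.16 kb downstream at 1.34 and 1.23. Both lay 608 to 878 bp from the start of the microRNA gene Mir6976 and so were not counted as distal. A further intronic site 6.79 kb downstream, 714 bp from a late Srf start, had 1.04 and 0.684. The single distal region by the rule, 1.05 kb into the gene, had 0.792 and 0.555. Counted together, 4 intronic regions of this short gene of 7.85 kb were open in both replicates.

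Among the ternary complex factors, Elk4 had the tallest promoter and Elk3 the lowest. Elk4 (chromosome 1, 132007607 to 132032612, plus strand) had 3.20 (2.97 to 3.45) in replicate 1 and 1.85 (1.68 to 2.03) in replicate 2, 2.53 ± 0.956 (SD, n = 2). A second Elk4 peak, centred 0.529 kb downstream of the first start, had 2.12 and 1.44. Its centred log2 difference at the main peak was -0.51, outside the SD of shared regions, so Elk4 was relatively lower in replicate 2.

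Elk1, the founding member of these factors (chromosome X, 20933395 to 20950608, minus strand), had a promoter of 1.82 (1.64 to 2.01) and 1.17 (1.04 to 1.32). That was above 38.7% and 32.8% of the genes with a promoter peak, below the middle in both replicates. The Elk1 promoter and its distal region lie in introns of Uxt, so neither can be assigned to Elk1 alone.

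Elk3, also called Net, is a ternary complex factor that can repress transcription. Its gene (chromosome 10, 93247414 to 93311135, minus strand) had promoter peaks of 0.871 (0.750 to 1.0) and 0.50 (0.415 to 0.598), above 17.4% and 8.24% of the genes with one. The tallest of these was centred 0.754 kb inside the gene, and the peak at the first start itself had 0.843 and 0.392. With centred log2 differences of -0.52 and -0.82 both were lower in replicate 2 by more than the SD of shared regions. In replicate 2 no Elk3 promoter base had a rate up to 0.001 (lowest 0.00284), whereas 594 bases did in replicate 1.

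Myocd, the smooth muscle and heart coactivator of SRF (chromosome 11, 65176561 to 65269989, minus strand), had the lowest promoter of the group by mean height. Its peak reached 0.610 in replicate 1 (131 steps, interval 0.510 to 0.724) and 0.513 in replicate 2 (123 steps, 0.426 to 0.612), 0.561 ± 0.0687 (SD, n = 2). Myocd was above 9.66% and 8.90% of the genes with a promoter peak. The replicates differed here by 0.03 after centring, among the smallest differences of the group. The peak was broad, 659 bp over both replicates, and its lowest rates of 0.000958 and 0.00177 were far from those of Srf. These rates do not rank sites by height. A peak of 0.382 over the downstream end of Elk3 had a lowest rate of 5.36e-33 in replicate 1. The 3 later Myocd promoters had no peak.

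Of the MEF2 genes, Mef2a and Mef2d had tall promoters. Mef2a (chromosome 7, 67231163 to 67372858, minus strand) had 4.46 (4.18 to 4.75) and 3.45 (3.22 to 3.69), above 80.5% and 82.9% of the genes with a promoter peak. Mef2d (chromosome 3, 88142372 to 88172086, plus strand) had 3.60 (3.35 to 3.86) and 2.79 (2.58 to 3.01), above 69.6% and 71.8%. Their centred differences were -0.09 and -0.08. Mef2a carried 2 further promoter regions within 1 kb, at 2.04 and 1.1 upstream and at 0.736 and 0.584 downstream of the start.

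The tallest value of the group, that of Mef2b (chromosome 8, 70139711 to 70167488, plus strand), belonged to a window shared with other genes. The peak of 6.40 and 4.35 was centred 0.415 kb upstream of the most upstream Mef2b start, and 142 bp from the start of Rfxank, the nearest start of any gene. The window of that Mef2b start also holds a start of Borcs8. With a window of 250 bp on each side the Mef2b height was 1.13, the mean of the peak at its other promoter. That promoter, 13.1 kb downstream and the start of 4 coding transcripts, had 1.23 and 1.03, below Elk1 (1.82 and 1.17) in both replicates. The height of the shared window cannot be assigned to Mef2b.

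Mef2c (chromosome 13, 83504034 to 83667080, plus strand) was the one gene whose most upstream promoter was closed while others were open. Its 31 transcripts begin at 27 positions, grouped here into 10 promoters of starts less than 500 bp apart. The first, used by 6 coding transcripts, had no peak and not 1 base with a listed rate in either replicate. The promoter 19.4 kb downstream had 0.759 and 0.475, and that at 20.3 kb, where 10 transcripts begin, had 0.973 (0.846 to 1.11) and 0.805 (0.695 to 0.927). A promoter at 68.3 kb had a peak in replicate 1 alone, at 0.414. The RefSeq promoter at the closed start had a GC content of 35.7%, the one at the open start 19.4 kb downstream had 47.0%, and another at a closed start 69.6 kb downstream had 48.3%, where the median of all RefSeq promoters was 52.7%.

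Over the group, 11 of 34 promoters had a peak in both replicates, 1 in replicate 1 alone and 22 in neither. Among 52546 promoters of protein-coding genes grouped the same way, 31.3% were open in both. In every gene but Mef2c the first promoter was among the open ones, and only Mef2b and Mef2c had 2 open promoters.

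**Figure D2:**
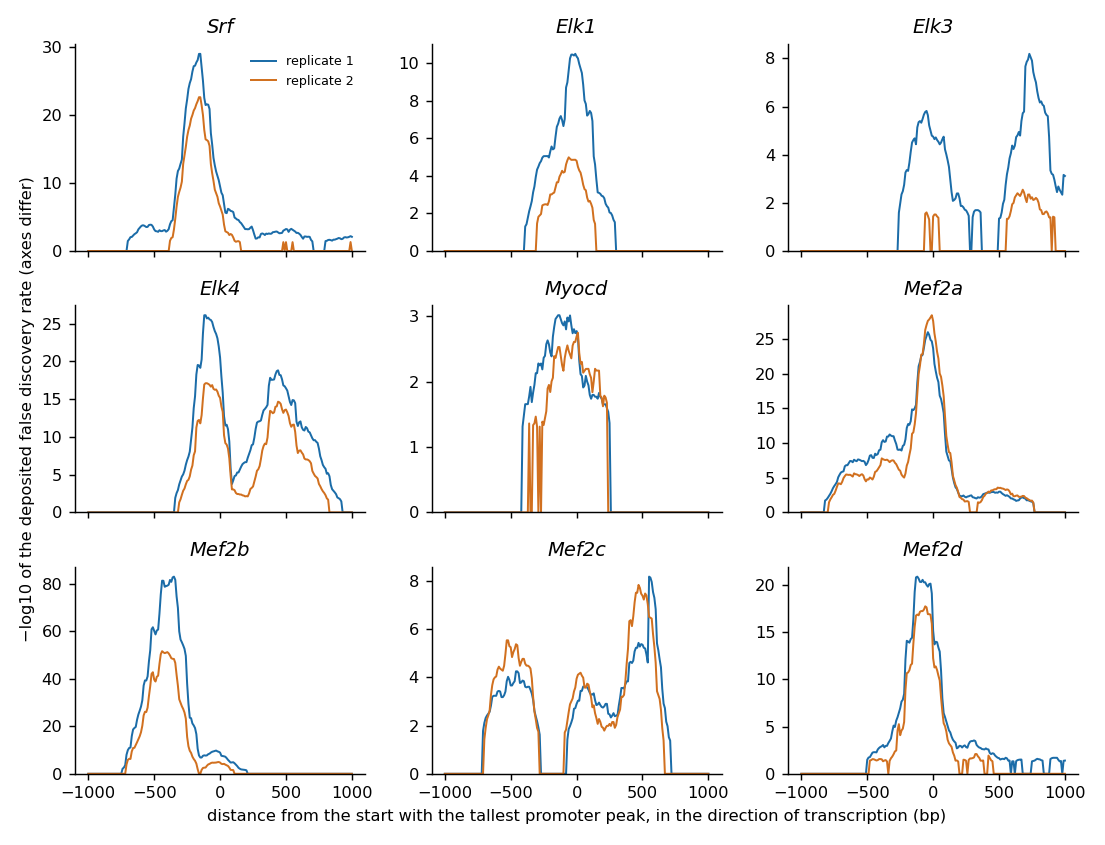
Lowest deposited false discovery rate of the DNase cut rate in bins of 10 bp, as −log10, against the distance from the start with the tallest promoter peak (bp, in the direction of transcription), with 0 where no rate is listed and axes that differ between genes. Srf, Elk1, Mef2a and Mef2d showed a single main summit close to the start, Elk4 a pair of summits, Mef2b a summit some 400 bp upstream, and Myocd a low broad one.

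The distal regions followed a different order from the promoters. In all, 22 distal regions were open in both replicates, 5 each at Mef2c and Mef2d, 4 at Elk3, 3 at Mef2a and 1 at each of Srf, Elk1, Elk4, Myocd and Mef2b. All 9 genes had at least 1, as 43.6% of protein-coding genes did, and 4 of the 9 had at least 2, as 22.8% did. The median was 1 per gene, beside a median of 0 and a mean of 1.18 over all genes. Elk3 and Mef2c, with low promoters, were thus among the 4 genes with the most distal regions. Of the 22, 12 lay in introns of the gene itself, 9 between genes and 1 in an exon. In the stricter lists 9 distal regions were shared, 3 of them at Mef2c and 2 at Elk3, and none at Srf, Elk1 or Mef2a. Taken alone, replicate 1 had 25 and replicate 2 had 34.

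The tallest distal regions belonged to Mef2d, Elk3 and Mef2c. The region 3.92 kb upstream of Mef2d, between genes, had 2.78 and 2.31, above 97% of shared distal regions. An intronic region of Elk3, 19.1 kb downstream of the first start, had 2.05 and 1.43 (above 90.9%), so it was higher than the Elk3 promoter in both replicates. For Mef2c, a region 62.3 kb beyond its last start, past the end of the gene, had 1.78 and 1.21, and an intronic region 151 kb downstream of the first start had 1.42 and 1.48. Both were higher than each Mef2c promoter in both replicates.

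The remaining distal regions were lower. At Mef2c the next in height, in an intron 14.4 kb downstream of the first start, had 0.894 and 0.942, and at Mef2d the next had 0.964 and 0.788 in an intron and 1.02 and 0.555 past the end of the gene. Elk3 had 2 more intronic regions of 0.806 and 0.805 and of 0.889 and 0.717. At Mef2a all 3 lay between genes upstream, 12.3 to 63.0 kb away, and their heights ran from 0.538 to 0.830. The Mef2b intron had 1.5 and 0.851, and the region 12.4 kb upstream of Elk4 had 0.982 and 0.775. An intron that Elk1 shares with Uxt had 0.484 and 0.538. The median shared distal region of the series had 0.703 and 0.621.

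The distal region of Myocd stood above its promoter. It lay in a Myocd intron 72.5 kb downstream of the first start, and had 0.838 in replicate 1 and 0.817 in replicate 2, against 0.610 and 0.513 at the promoter. Its values of both replicates were above both promoter values. It was present in the stricter list of both replicates, where the promoter was in neither. The stricter lists did not hold only taller peaks. Their median heights were 0.750 in replicate 1 and 0.258 in replicate 2, beside 0.512 and 0.321 in the longer lists.

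Near Mef2d, the tallest peaks of the locus were at another gene. Regions 35.4 and 35.7 kb downstream of the first Mef2d start had 4.23 and 3.39, and 6.48 and 4.65, above the Mef2d promoter in both replicates. They lay 19 and 331 bp from the start of the antisense gene 1700113A16Rik and were not counted as distal.

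**Figure D3:**
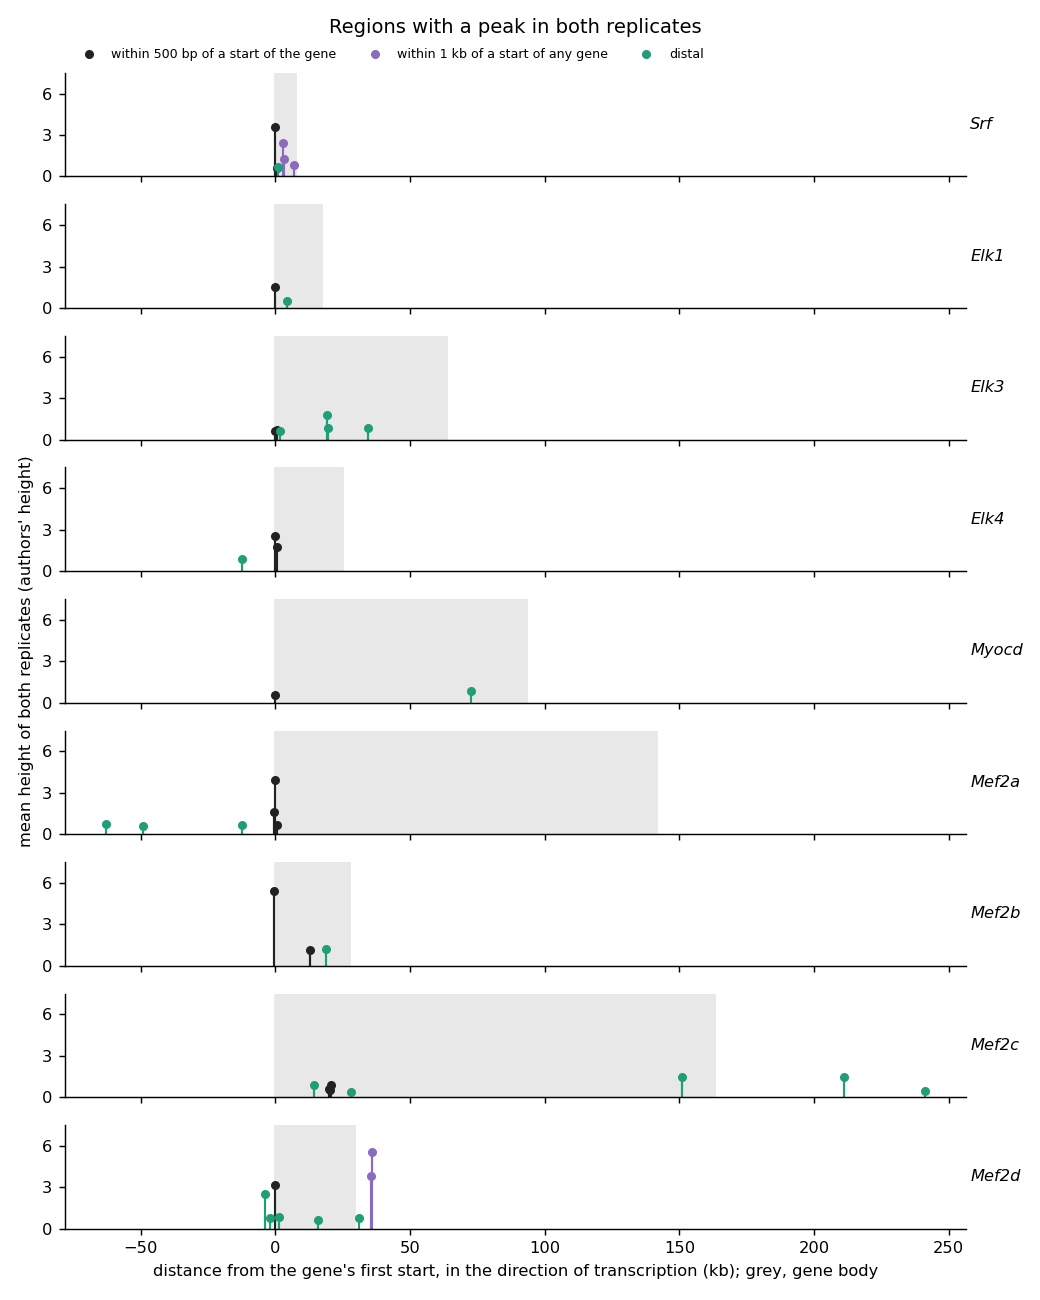
Regions with a peak in both replicates, at their distance from the first start of each gene (kb, in the direction of transcription, gene body in grey), with the mean of both replicates' heights (authors' height). The distal regions of Elk3, Mef2c and Myocd include ones above the promoter of the gene. At Srf, Elk1, Elk4, Mef2a, Mef2b and Mef2d the tallest promoter region was above every distal region. For Mef2b that region is the shared window nearest to Rfxank. The other Mef2b promoter was below the Mef2b intronic region in replicate 1 and above it in replicate 2.

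Of 71 promoter, near-start and distal regions of these genes, 44 (promoter 17, near a start 5, distal 22) were shared and 27 were in a single replicate, where over the series 34.2% of regions were shared. A further 40 regions lay in the bodies of Elk3, Mef2a and Mef2b but nearest to another gene, 17 in replicate 1 alone, 22 in replicate 2 alone and 1 shared, and with them 45 of 111 (40.5%) were shared. The 27 regions in a single replicate had heights of 0.150 to 0.885, and 16 of them were in decile 6 or higher of their replicate's peak heights. The tallest, at 0.885 in replicate 1, lay next to the tall Mef2d upstream region. Among the 44 shared regions the centred log2 difference had a median of -0.07 and ran from -0.82, at the Elk3 start, to 0.66, at the Mef2a region 63.0 kb upstream. It was within 1 SD of all shared regions at 33 of 44 and above 0 at 16.

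**Figure D4:**
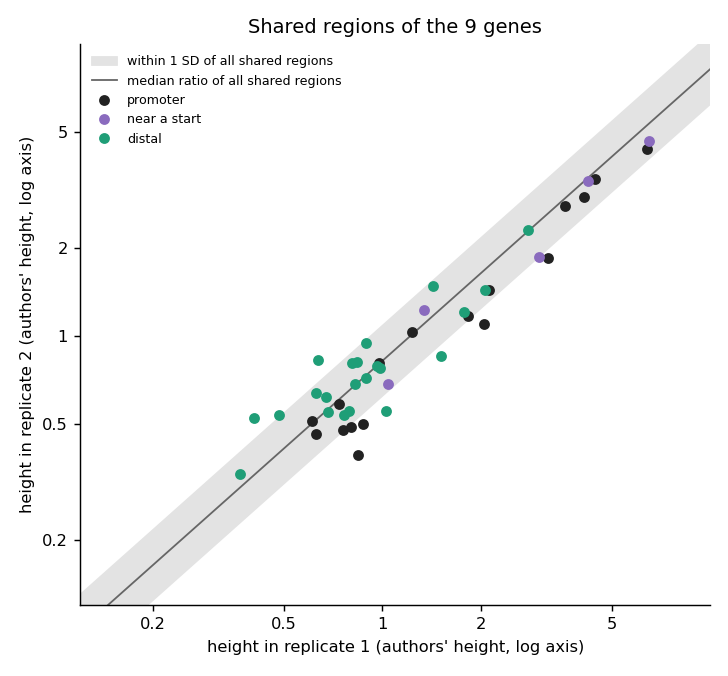
Height of the 44 shared regions in replicate 2 against replicate 1 (authors' height, log axes), with the line of the median ratio of all shared regions and a band of 1 SD. Of the points, 33 lie in the band, and the Elk3 promoter regions lie below it.

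Footprints were counted where the deposited footprint lay wholly inside a peak. The 44 shared regions held 149 footprints in replicate 1 and 98 in replicate 2, and 42 and 36 of the regions had at least 1, beside 86.7% and 86% of all shared regions. Both replicates had a footprint in 35 of the 44, beside 79.1% of all shared regions. In 71 cases a footprint of replicate 1 overlapped one of replicate 2 in the same region.

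Counts per gene mostly followed the number and height of regions. Mef2d, with 8 shared regions, had 29 and 26 footprints and 19 overlapping ones, and Mef2c, also with 8, had 36 and 12 and 12 overlapping. Of the 36, 19 fell in 1 intronic Mef2c region 14.4 kb downstream of the first start, which had 5 in replicate 2. That region was 680 bp wide, where the median peak had 200 bp in replicate 1 and 180 bp in replicate 2. Its sequence holds a long run of CA repeats. The Srf promoter had 6 and 3, all 3 of which overlapped, while the Srf region 1.05 kb into the gene had 6 in replicate 1 and 0 in replicate 2. The tallest Elk3 promoter region had 4 and 0.

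**Figure D5:**
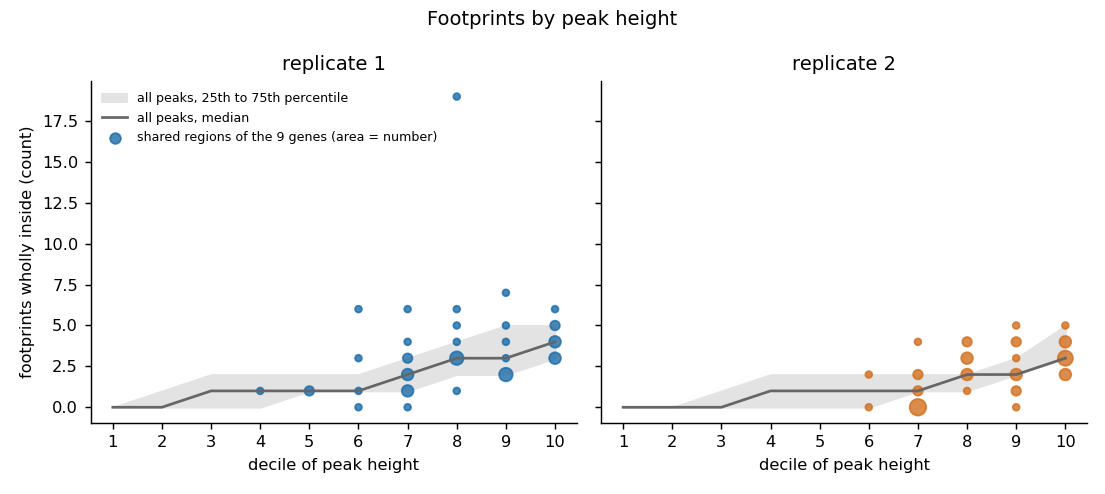
Number of footprints wholly inside the 44 shared regions against the decile of peak height within each replicate, with point area for the number of regions and the median and 25th to 75th percentile of all peaks of that decile in grey. A Mef2c intronic region with 19 footprints in replicate 1 stands above the rest, and it is 680 bp wide. The counts are not scaled by width.

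The motifs of these regulators were searched in the sequences, on both strands, as letters only. A CArG box, the SRF site, was found 65 bp upstream of the Srf start, as CCATATAAGG on the strand of the gene, and again with the same letters in the Srf intron 2.89 kb downstream. Neither lay in a footprint of either replicate, so both are in lower case above. Another CArG box, CCTATTTAGG, lay in the region beside 1700113A16Rik downstream of Mef2d, also outside footprints. A motif counted as inside a footprint when at least 50% of its bases were. Of 633 CArG boxes in all shared regions, 5.85% lay in footprints of both replicates, so most were outside.

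Of the 300 bp RefSeq promoters, 1.63% held a CArG box, and of the 12 matched to 8 of the genes only that of Srf did. No RefSeq promoter was matched for Myocd. Of the RefSeq promoters 3.19% held a MEF2 site, and among these genes Mef2a did, with CTAAAAATAG across its first start, 2 bp downstream. It lay in a footprint in replicate 1 and not in replicate 2. Of 526 MEF2 sites over all shared regions 9.13% lay in footprints of replicate 1, 5.32% in those of replicate 2 and 2.09% in those of both. The ETS letters CCGGAAGT, bound by ternary complex factors and many other ETS proteins, were in 3.89% of RefSeq promoters and, here, in that of Elk4, 51 bp upstream of the start. They lay in a footprint of both replicates, as 27.8% of 1490 ETS matches did, and are in capitals above.

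General promoter motifs were more frequent. The GC box GGGCGGG was in 7 of the 12 RefSeq promoters, against 25.6% of all. An overlapping pair of Elk4 promoters held the same GC box, which counted for each of them. Of 26 GC boxes in shared regions of the group 10 lay in footprints of both replicates, against 34.3% of all. Examples are the pair in the Mef2d promoter. A match to the NRF1 consensus lay in footprints of both replicates in the window upstream of Mef2b, in the peak nearest to Rfxank, as 86.5% of 393 such matches did. The CCAAT box was in 6 of the 12 promoters, against 37.4% of all.

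In the central 150 bp of the 22 distal regions there was no CArG box, MEF2 site, ETS or TEAD (CATTCC) match. The shares in all 25833 shared distal regions were 0.766%, 0.623%, 0.333% and 9.26%. AP-1 letters (TGANTCA) were in 2 (6.14% of all), the GC box in 4 (6.02%), the CCAAT box in 5 (16.3%) and the E box CAGCTG in 5 (15.0%). The Elk1 region is 91 bp wide, so its window of 150 bp reached beyond it. The GC box and CAGCTG matches counted for Elk1 lay outside the region. A TEAD match in the Myocd intronic region lay outside the central 150 bp. The CRE letters TGACGTCA, the site of CREB proteins, were in the tall region upstream of Mef2d (0.418% of all), in a footprint in replicate 1 and not in replicate 2.

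Several distal footprints shared another sequence, which was looked for only after they had been read. The core of the motif of CTCF, the factor that binds insulators and loop anchors, was searched as CCA, AG, G and C spaced as in the consensus, with any base between. It was in 10 of the 22 distal regions: 3 at Elk3, 2 each at Mef2c and Mef2d, and 1 each at Elk1, Elk4 and Mef2a. Of the 10 matches 7 lay in footprints of both replicates, at Elk1, Elk4, both Mef2c regions, 1 Mef2d region and 2 Elk3 regions, all printed in the second set above. Such a core is common: it was in the central 150 bp of 22.2% of all shared distal regions and in 9 of the 22 here, and 70.5% of its 7509 matches in such regions lay in footprints of both replicates. The footprint in the Elk3 intron with the tallest distal peak covered CCACGAGGTGGC, read on the other strand, and that in the Mef2c intron covered CCAGCAGGTGGC. The core was not found in the distal regions of Srf, Myocd and Mef2b. The footprints of the Myocd intron, printed above, matched none of the motifs searched.

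The genes that act with these regulators were read from 6 lists with 79 genes, of which 72 (91.1%) had a promoter peak in both replicates, beside 62.3% of all protein-coding genes. In the list of MRTF coactivators and the actin switch, 14 of 14 did. The tallest were Mrtfa, an SRF coactivator that binds free actin, at 6.61 and 6.22, and Limk1, a kinase that inactivates cofilin, at 6.74 and 4.18. The Myocd promoter, at 0.610 and 0.513, was far below both in each replicate. Mrtfb, the other coactivator, had 2.66 and 2.38.

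In the list of inputs to the ternary complex factors 8 of 8 had a promoter peak in both. Map2k1 and Map2k2, the kinases that activate ERK, led with 9.47 and 7.38 and with 5.69 and 4.12. In the list of MEF2 partners and inputs 16 of 17 did, led by Ppp3ca, the catalytic subunit of calcineurin, at 10.2 and 6.69 and Hdac4, a class II histone deacetylase that represses MEF2, at 7.68 and 6.19. Vgll2, a cofactor of skeletal muscle, had none.

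The remaining lists held target genes. Of the immediate early SRF targets 10 of 10 had a promoter peak in both replicates, with Egr1 at 5.07 and 4.02 and Ier2 at 3.86 and 2.88. Of the contractile SRF targets 17 of 18 did, with Vcl, the adhesion protein vinculin, at 6.27 and 5.71 and the tropomyosin gene Tpm1 at 5.14 and 4.39. Actg2, the smooth muscle actin of gut and bladder, had a peak in replicate 1 alone (0.657). The median heights were 3.05 and 2.26 for the immediate early list and 1.73 and 1.33 for the contractile list. They lay on either side of the medians of all genes with a promoter peak, 2.44 and 1.80. Of the MEF2 targets 7 of 12 (58.3%) had a promoter peak in both replicates, near the 62.3% of all protein-coding genes. The tallest were Klf6 at 5.69 and 4.92 and Jun at 5.83 and 4.39. Those without a peak in either replicate were Myog, Tnnt2, Actc1, Nppa and Xirp1, genes of skeletal and heart muscle. The difference between lists was not tested.

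The genes most like Srf and Myocd were sought among 13661 genes by the Euclidean distance over 4 values, the log2 promoter heights and the log2 of 1 plus the distal peaks in each of the 2 samples. Those nearest to Srf were Carf (4.09 and 3.03), Ccdc134 (4.16 and 3.05) and Gm10306 (4.21 and 2.98), each with 1 distal peak per replicate as Srf had. Nearest to Myocd were Rgs7 (0.596 and 0.509), Amph (0.652 and 0.525) and Prtg (0.568 and 0.504), each with 1 distal peak in replicate 1 and 3 in replicate 2.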

How the data were processed

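The files hold DNase-seq results for 2 libraries, 1 per biological replicate, on assembly mm10 per the labels. The authors deposited, for each library, a longer and a shorter peak list, footprints and rates per stretch of bases. Peak height is a deposited signal with no scale stated. The deposited p-value is 0.01 for every footprint, and in the rate lists it is a false discovery rate (q-value), shown in a figure as −log10. Peak caller, thresholds and read depth were not given in the sources used here.

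Peaks of both replicates that overlapped by 1 bp were merged into regions, called shared where each replicate had a peak. The tallest peak gave the height. Starts came from GENCODE M21 on chromosomes 1 to 19, X and Y, and a gene's starts less than 500 bp apart formed 1 promoter. The genes and lists were chosen with earlier results of these data known, so no p-value was computed. The main counts stand beside the share of all features. Named were all 9 genes, the 3 tallest distal regions of each, and of each list the 2 tallest promoters and each gene with no promoter peak, and others outside this rule, such as Mrtfb and Actg2, were named after their values were seen. The 18 motifs included the CArG box as CCWWWWWWGG and the MEF2 site as YTAWWWWTAR, where W is A or T, Y is C or T and R is A or G. The others were those whose letters the results give, the consensus of NRF1 and of NFI, and the E box CACGTG. Single strings were used for YY1 (AAGATGGC), FOX (TGTTTAC), KLF (CCACACCC), SMAD (GTCTAGAC), RUNX (TGTGGTTT) and the GATA family (AGATAA). Promoter sequences were RefSeq's on GRCm38.p6, and all 12 equalled the genome at their coordinates. Python 3.11.15, numpy 2.4.6, pandas 2.3.3, scipy 1.17.1 and matplotlib 3.10.9 were used, and the interval functions were tested on simulated peaks.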

Additional observations from a re-analysis of the deposited data

How the results depend on the processing

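A promoter peak was present in both replicates at all 9 genes with windows of 250 and 1000 bp and with starts of protein-coding transcripts only. It was present at all 9 with either replicate left out, and at 7 in the stricter lists. The wider window and leaving out a replicate cannot lose a peak called in both, so those results were fixed in advance. The median of the 9 mean promoter heights, 2.53, fell to 1.5 with the 250 bp window, because the tall peak upstream of Mef2b, nearest to Rfxank, was lost, and ranged from 1.85 without replicate 1 to 3.20 without replicate 2. Of 25 heights of single genes under alternatives that keep both replicates 24 stayed within the SD of the replicates, and the exception was Mef2b at 1.13 with that window. Such alternatives change a height only where a different peak becomes the tallest, which happened at Elk3 and Mef2b alone. The other heights were identical, so this count is no check on them. The 22 shared distal regions became 9 in the stricter lists, 34 without replicate 1 and 25 without replicate 2, and 19 to 26 under the other definitions of distal and shared. Of 63 alternative distal counts of single genes 12 moved by more than 1.5 times. The 18 pairs of motif and distal window became 30 when the central 300 bp was searched. Of the listed pathway genes, 64 had a promoter peak in both stricter lists, a setting added after the data were seen, as were a 1000 bp window (72) and leaving out a replicate (72 and 73). Bases with a rate up to 0.05 in both replicates occurred at 11 promoters, and up to 0.001 at 9. Footprint counts per replicate averaged 123.5, and 129.5 with any overlap and 87.5 in the stricter lists.

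No paired analysis was possible because the 2 libraries form 1 group. With 2 libraries the SD is itself imprecise, the depth in reads is unknown, and low sites such as the Myocd promoter rest on little over 100 steps.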

Other observations

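Some open sites around these genes fell outside the rule. Upstream of Myocd, 4 shared regions lay beyond 100 kb of its start with Myocd as the nearest protein-coding gene. They stood 117 kb upstream (0.712 in replicate 1 and 0.600 in replicate 2, and next to it 0.633 and 0.471) and 205 to 206 kb upstream (0.875 and 0.830, and 0.624 and 0.459), and the tallest of them was above the Myocd promoter in both replicates. Far upstream of Mef2c, at 343 to 855 kb, 9 peaks were called in replicate 2 alone and 1 in replicate 1 alone, none of them shared, with heights of 0.163 to 0.446.

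Low peaks of a single replicate lined the far ends of a pair of these genes. Over the downstream end of Elk3, nearest to Cdk17, 17 peaks of 0.0792 to 0.382 were called in replicate 1 and none in replicate 2. Over the downstream end of Mef2a, nearest to Lysmd4, 22 peaks of 0.0417 to 0.334 were called in replicate 2 and none in replicate 1. Most peaks of both sets were in the stricter list of their replicate, despite their low heights. A shared region near the end of Mef2b, nearest to Tmem161a, had 1.36 and 1.21.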
